A study of Homo sapiens with 9 samples.

Results

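The 9 RNA-seq libraries came from SKNO-1, a line of human myeloid leukaemia cells with the RUNX1-RUNX1T1 fusion that is grown with the cytokine GM-CSF. Each of 3 groups, labelled EV (control), SH2 and SH3 (either of 2 shRNAs against ASXL2), held 3 samples whose titles end in 1, 13 and 25. The 3 samples numbered 1, 1 from each group, were compared with the 6 numbered 13 and 25, so that 3 of the 9 samples of the series were set against the rest, with the group as a block. Neither the labels nor the methods say what the numbers stand for (a culture, a day or a position) or whether the samples of a number were handled together. The label EV is not spelled out, and the study's text calls its control a control shRNA. The extraction text of the labels describes sorted bone marrow cells, which does not match the cell line in the titles. The study calls the 3 samples of a group biological replicates without saying what was kept separate, so p values measure the spread between these samples.

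Of 14 tested identity genes of the line 10 did not pass the test between numbers, 3 (PTPRC, MYB and KIT) rose and 1 (ANPEP) fell. These were 21.4% and 7.14%, against 18.5% higher and 16.5% lower over all tested genes. The counts are therefore not read as a result about identity. MPO, the myeloperoxidase of early granulocytes, lay between 6371 and 10240 CPM (counts divided by the effective library size and scaled to 1e6), RUNX1T1 between 111 and 138 CPM and CSF2RB, the shared chain of the GM-CSF receptor, between 99.5 and 155 CPM. CD34 and CSF2RA fell under the filter on low counts, with at most 10 and 1 counts in any sample. Totals were 27714431 to 35406063 counts with 1 transcript row per gene. A floor of 3 counts thus corresponded to 0.0847 to 0.108 CPM, counting error only. The targeted gene ASXL2 was at 67.8, 68 and 74.8 CPM in EV numbered 1, 13 and 25, at 30.4, 36.2 and 36.2 CPM in SH2 and at 26.9, 29.1 and 41.1 CPM in SH3. Both shRNA groups were thus below EV at every number, and SH3 was highest at number 25. The number 1 samples differed in ASXL2 by -0.23 ± 0.11 on the log2 scale (SE), with an adjusted p of 0.113 in edgeR.

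Several well-known programmes are used below to order the genes. The lists and their members were chosen with earlier results of these data known, so counts of list members are descriptions. Under low oxygen the transcription factor HIF is stabilised and switches on genes of glycolysis, glucose uptake and mitophagy through the core sequence ACGTG or GCGTG. Low membrane sterol releases SREBP factors that switch on cholesterol synthesis, zinc directs MTF1 onto metallothionein promoters, electrophiles release NRF2 onto antioxidant genes, and growth signals raise ribosome building, translation and DNA replication. These are background and not causes read from these samples.

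The number 1 samples stood apart across much of the transcriptome. Of 14391 genes tested by edgeR's quasi-likelihood test with Benjamini-Hochberg adjustment over all of them, 5049 (35.1%) passed an adjusted p of 0.05 (6716 at an unadjusted p under 0.05), of which 2668 (18.5%) were higher and 2381 (16.5%) lower in number 1. The levels of the 3 samples lay wholly above the other 6 for 2052 genes (14.3%) and wholly below for 1734 (12%). Large differences were mostly upward: 505 called genes were higher by at least a factor of 2 and 71 lower. Against number 13 alone 4908 genes (34.1%) passed and against number 25 alone 6321 (43.9%), while 835 (5.8%) passed between 25 and 13, of which 394 (2.74%) were higher and 441 (3.06%) lower in 25. These contrasts share samples, and 3655 genes were called the same way against both. The count between 25 and 13 depended on the groups used, at 44, 10 and 2043 without EV, SH2 and SH3. The first principal component, which held 52.2% of the variance of log2 CPM, placed the number 1 samples at -25.3 (EV), -21.5 (SH2) and -59.9 (SH3) and the other 6 between 5.17 and 25.4. The second, with 13.6%, set numbers 13 and 25 apart. In EV, SH2 and SH3 it was at 13.9, 18.5 and 19.9 for number 13 and at -16.5, -13.8 and -17.8 for number 25.

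The SH3 sample numbered 1 lay farthest out, and the size of the result depends on it. With the group as a block, the comparison rests on EV and SH2 alone once that sample is left out. The median absolute log2 difference of number 1 from the mean of 13 and 25 was 0.35 in SH3, 0.207 in EV and 0.198 in SH2, and 10.7% of genes differed there by at least a factor of 2, against 2.8% and 3.69%. Without that sample 1490 genes passed, and without it and the SH3 sample numbered 25, which also carried raised hypoxia genes, 1391 (9.55% of those tested). All 5049 calls kept their direction in that reduced set and 1366 kept their call. No gene passed a joint test of whether the 3 groups differed in their number 1 difference (edgeR, 0 of 14391 at an adjusted p of 0.05, 826 at an unadjusted p under 0.05), a test with 3 residual degrees of freedom. In that fit SH3 alone gave 3498 called genes, SH2 alone 1 and EV alone 0, which does not show that the groups differ.

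Properties of the libraries were compared as well. Genes with at least 10 counts numbered 13951 to 14329 in number 1 and 13752 to 13975 in the others. The 10 most abundant genes took 4.42% to 5.20% of counts in number 1 and 3.85% to 4.33% in the others, without overlap (exact two-sided permutation test over 27 ways to take 1 sample per group, p = 0.037, the smallest it can give, adjusted p = 0.185 over 5 properties). Over 13349 genes with an annotated length, Spearman's rho between the log2 difference and transcript length was -0.00611, a description across genes that are not independent.

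Hypoxia genes rose together. Of 27 list members in the files 26 were tested, and 22 rose and 0 fell, with a median log2 difference of 0.88 against 0.0035 over all genes. With both SH3 samples named above (numbered 1 and 25, here and wherever both SH3 samples are left out) removed, 20 rose. In that reduced set 5.42% of all tested genes rose and 4.13% fell, against 18.5% and 16.5% in the full set. Every list count from the reduced set is to be read beside those lower shares. Those counts rest on EV and SH2 alone, since the SH3 sample left in the set has no number 1 sample to be compared with. PPFIA4 (NM_015053, GRCh37 chromosome 1, 202995619-203047868), a liprin scaffold protein that is not on the list, had the largest rise among genes at a mean of at least 5 CPM. It stood at 23.4, 21.4 and 77.8 CPM in EV, SH2 and SH3 numbered 1, at 0.783, 0.533 and 0.494 CPM in number 13 and at 0.267, 0.312 and 3.93 CPM in number 25. No sample numbered 13 or 25 came near those numbered 1, and the highest of them was SH3 numbered 25. The log2 difference was 5.38 ± 0.39 (SE, adjusted p = 0.00023, edgeR), a factor of 41.5.

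PFKFB4 (NM_004567, chromosome 3, 48555117-48599448), which makes the glycolytic activator fructose-2,6-bisphosphate, was at 57.3, 66.5 and 193 CPM in number 1, at 5.14, 2.98 and 3.77 CPM in number 13 and at 4, 3.57 and 22.6 CPM in number 25. Its 3 number 1 samples were again highest, and SH3 numbered 25 lay between them and the rest. The log2 difference was 3.96 ± 0.36 (adjusted p = 0.000286, edgeR).

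BNIP3 (NM_004052, chromosome 10, 133781188-133795471), a receptor that directs mitochondria to autophagy, was at 209.5, 264 and 581 CPM in number 1, at 36.1, 31.9 and 32.2 CPM in number 13 and at 32.9, 35.0 and 110 CPM in number 25. The lowest sample numbered 1 was above the highest of the others. P4HA1 (NM_001017962, chromosome 10, 74766975-74856732), the catalytic subunit of collagen prolyl hydroxylase, followed the same order, with 162, 203 and 407 CPM in number 1, 41.8, 41.7 and 48.4 CPM in number 13 and 51.5, 47.2 and 105 CPM in number 25. Their log2 differences were 2.88 ± 0.26 for BNIP3 and 2.14 ± 0.19 for P4HA1 (adjusted p = 0.000286 for each, edgeR).

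**Figure D1:**
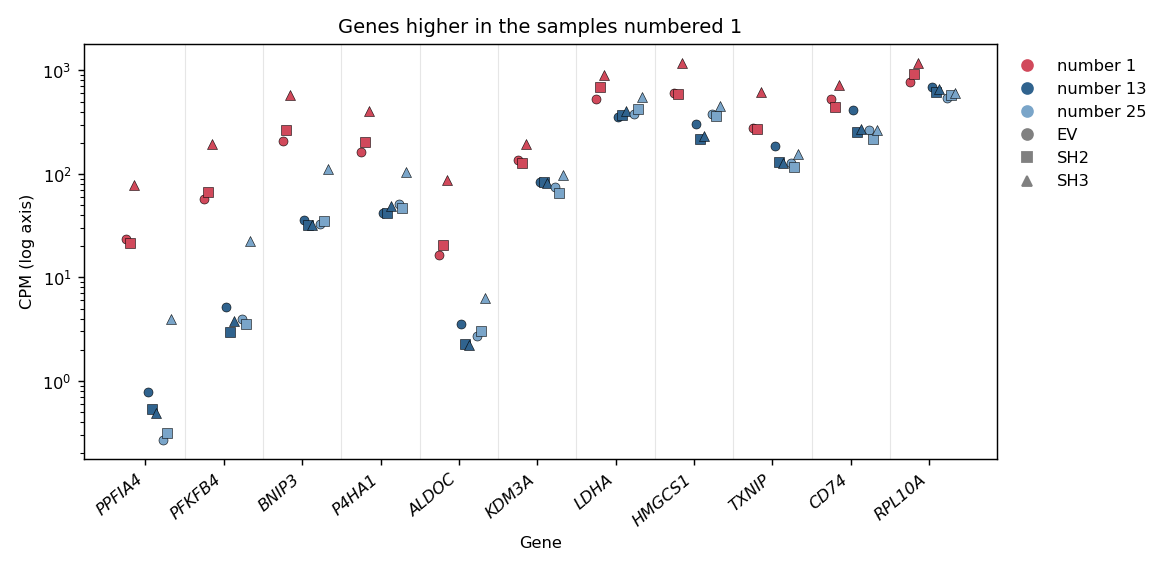
CPM of 11 genes on a log axis, 1 point per sample, coloured by label number and shaped by group (EV, SH2, SH3). The number 1 samples lie above the others for 10 of the genes and SH3 numbered 25 lies between for PPFIA4, PFKFB4, BNIP3 and P4HA1, while for LDHA the lowest number 1 sample (529 CPM) is under SH3 numbered 25 (554 CPM).

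Some genes changed on few reads. CA9, carbonic anhydrase 9, had 21, 34 and 385 counts in EV, SH2 and SH3 numbered 1, and 0 to 3 counts in each of the other 6 samples. MIR210HG, the host transcript of miR-210 and not on the list, was at 5.33, 5.73 and 16.2 CPM in number 1 and at 0.068 to 1.57 CPM in the others (log2 difference 4.80 ± 0.44, adjusted p = 0.000286, edgeR). Its lowest value, in EV numbered 13, came from 2 counts, under the floor of 3 counts, so the size of its difference is uncertain. ANGPTL4, an inhibitor of lipoprotein lipase, rose by 3.88 on the log2 scale and BNIP3L, a relative of BNIP3, by 1.54. Genes of wider function rose less: KDM3A, a histone H3K9 demethylase, by 0.89, PDK1, which blocks entry of pyruvate into mitochondria, by 0.76, and EGLN1, the oxygen sensor that marks HIF for decay, by 0.57 (each called by edgeR with no overlap). VEGFA, the angiogenic factor, did not pass: it was at 199 to 260 CPM in number 1, 150 to 171 CPM in number 13 and 231 to 244 CPM in number 25, so that number 1 exceeded 13 and overlapped 25. HIF1A itself was at 135 to 153 CPM in number 1 and 118 to 147 CPM in the others (adjusted p = 0.153, edgeR), and its partner ARNT rose by 0.36.

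Glycolytic enzymes rose in 12 of 17 cases and fell in 0, with a median log2 difference of 0.37. Brain-type isozymes led. ALDOC, aldolase C, was at 16.6, 20.5 and 88.2 CPM in number 1 and at 2.22 to 6.33 CPM in the others, and ENO2, neuronal enolase, at 13.5, 10.5 and 59.3 CPM against 2.10 to 4.84 CPM. Their log2 differences were 3.34 ± 0.34 (adjusted p = 0.000413) and 2.65 ± 0.40 (adjusted p = 0.00176) in edgeR. Abundant isozymes changed by less than a factor of 2: PGK1, phosphoglycerate kinase, was at 1127, 1438 and 2022 CPM in number 1 and at 890 to 1124 CPM in the others (0.63 ± 0.11), ALDOA rose by 0.59, LDHA, lactate dehydrogenase A, by 0.75 and ENO1 by 0.59. HK1, PFKL, PFKP, TPI1 and LDHB did not pass. The glucose transporters SLC2A1 and SLC2A3 rose by 0.51 and 0.86 and the lactate exporter SLC16A3 by 1.52. Without both SH3 samples, 8 of the enzymes rose.

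Promoters of 3 genes that rose are shown because their windows hold the core sequence of HIF binding at differing density. They are RefSeq sequences of GRCh38.p14, read toward the gene, with ACGTG or GCGTG on either strand in capitals and positions counted back from the gene start. BNIP3 (minus strand, chr10:131981974-131982173) is shown from -250 to -51, P4HA1 (minus strand, chr10:73096937-73096966) from -100 to -71 and ALDOC (minus strand, chr17:28576956-28577145) from -250 to -61:
BNIP3: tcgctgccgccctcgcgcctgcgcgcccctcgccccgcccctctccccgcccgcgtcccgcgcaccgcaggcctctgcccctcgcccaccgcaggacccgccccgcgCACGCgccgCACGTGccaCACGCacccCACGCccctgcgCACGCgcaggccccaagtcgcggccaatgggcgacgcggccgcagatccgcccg
P4HA1: ggtgtgatcgagctCACGTagcgagggctg
ALDOC: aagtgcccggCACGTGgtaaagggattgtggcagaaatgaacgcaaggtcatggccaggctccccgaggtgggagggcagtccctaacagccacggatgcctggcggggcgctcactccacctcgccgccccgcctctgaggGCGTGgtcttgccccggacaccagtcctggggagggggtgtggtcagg
In BNIP3 6 matches fell within this stretch, in P4HA1 1 and in ALDOC 3, with 2 more nearer its start. CACGTG, the E-box read by MYC and other factors, holds the core on both strands and counts as 2 matches, and it is present once in BNIP3 and once in ALDOC. Of 19 tested hypoxia genes with a promoter in the table, 15 (78.9%) held the core in the 250 bases before the start, against 56.9% of 10115 promoters of tested genes and 43.1% of all 27305 promoters. Of the cholesterol genes 15 of 18 held it, so the letters are common and a match is a description, not a bound site.

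Enzymes of cholesterol synthesis rose nearly throughout the pathway. Of 25 members in the files 24 were tested, and 21 rose and 0 fell (median 0.52), of which 12 rose with both SH3 samples left out. HMGCS1 (NM_001098272, chromosome 5, 43287572-43313614), which makes HMG-CoA, was at 599, 587 and 1183 CPM in number 1, at 304, 217 and 233 CPM in number 13 and at 377, 366 and 458 CPM in number 25. All 3 number 1 samples were above the rest, and number 25 lay above number 13. The log2 difference was 1.22 ± 0.23 (adjusted p = 0.00394, edgeR). MSMO1, which removes methyl groups from the sterol ring, rose by 1.20 and INSIG1, the sterol-regulated brake on SREBP, by 0.91. PMVK and NSDHL were among the members that did not pass. SREBF2, the factor that drives the pathway, rose by 0.36. Of 11 fatty acid synthesis genes 6 rose (ACSS2, SCD, FADS1, FADS2, ELOVL6 and ELOVL5) and 1 (ME1) fell. The desaturase SCD was at 1030, 1072 and 1621 CPM in number 1 and 643 to 923 CPM in the others. FASN (-0.22), ACACA (-0.24) and ACLY (-0.017) did not pass and pointed down. SREBF1 (0.26) did not pass either, so the rise did not cover the whole list.

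**Figure D2:**
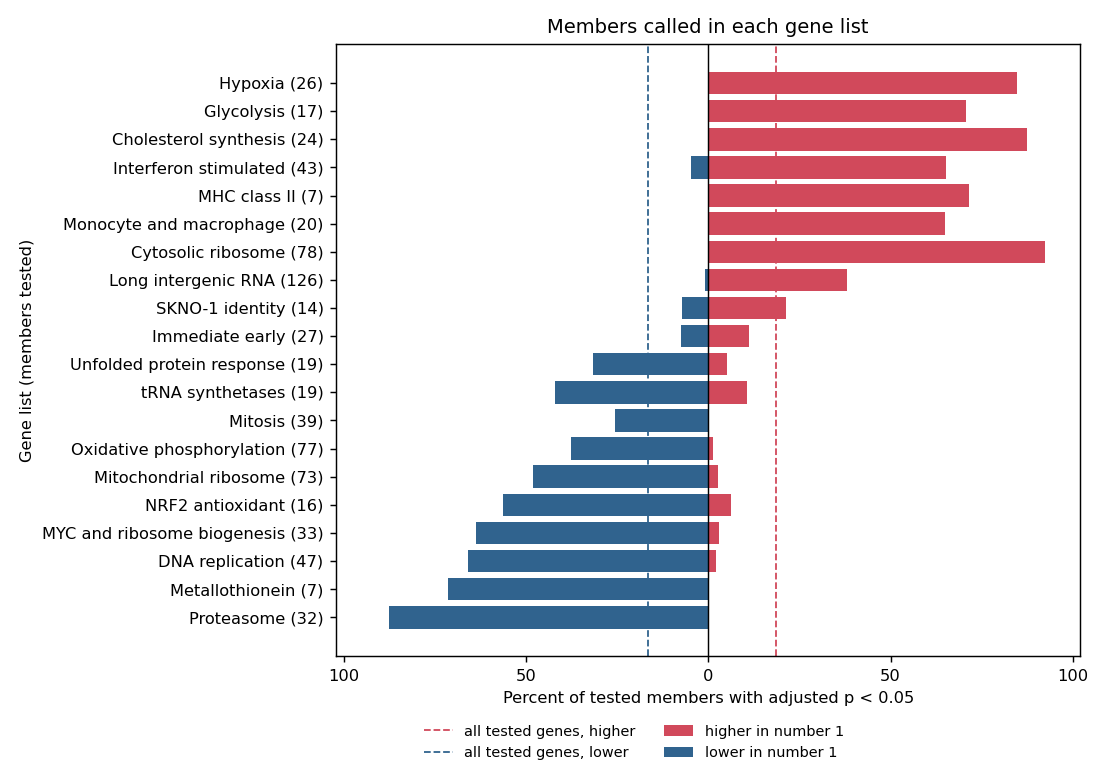
Percent of tested members of 20 gene lists that passed an adjusted p of 0.05 and were higher (right) or lower (left) in the number 1 samples, with dashed lines at the percentages over all tested genes (18.5% and 16.5%). Hypoxia, cholesterol synthesis and the cytosolic ribosome stand out to the right and the proteasome and DNA replication to the left.

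TXNIP, which binds thioredoxin and limits glucose uptake, was at 276, 274 and 619 CPM in number 1 and at 117 to 188 CPM in the others (log2 difference 1.40 ± 0.20, adjusted p = 0.00151, edgeR). Its paralogue ARRDC3 changed the other way, at 12.6 to 16.5 CPM in number 1, 15.9 to 23.8 CPM in number 13 and 27.2 to 37.5 CPM in number 25. The ARRDC3 difference was -0.88 ± 0.26 (adjusted p = 0.0223, edgeR), and the lowest sample numbered 13 lay under the highest numbered 1. DDIT4, an inhibitor of the growth kinase mTORC1, was at 39.2, 40.5 and 130 CPM in number 1, 18.6 to 22.7 CPM in number 13 and 9.07 to 15.4 CPM in number 25. CCNG2, a cyclin of resting cells, rose by 1.56 and PNRC1, a repressor of ribosomal RNA synthesis, by 1.00 on the log2 scale, both without overlap.

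Interferon-stimulated genes rose in 28 of 43 tested cases (49 in the files) and fell in 2, with a median of 0.63. When both SH3 samples were dropped, 15 rose. IFIT2, an RNA-binding antiviral protein, was at 4.20, 5.99 and 14.8 CPM in number 1 and at 1.83 to 2.73 CPM in the others. PARP14, an ADP-ribosyltransferase, was at 39.4, 26.7 and 41.1 CPM in number 1, and in each group the number 1 sample was highest. The others lay at 15.5 to 26.5 CPM, so that SH2 numbered 1 was only just above the highest of them, EV numbered 13. Log2 differences were 1.78 ± 0.26 for IFIT2 (adjusted p = 0.00173), 0.87 ± 0.11 for PARP14 (adjusted p = 0.000897) and 0.75 ± 0.08 for IFIH1, the sensor MDA5 (adjusted p = 0.000529), in edgeR. STAT2, a signal transducer of the interferon receptor, rose by 0.66. Among the genes that fell was CMPK2, a mitochondrial nucleotide kinase, at 40.3 to 62.9 CPM in number 1, 101 to 112 CPM in number 13 and 59.8 to 76.8 CPM in number 25. ISG15, a classic member of the list, was at 1.29 to 2.54 CPM in number 1 and 1.37 to 2.60 CPM in the others and did not pass.

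Genes of antigen presentation rose in part. CD74, the invariant chain of MHC class II, was at 524, 441 and 725 CPM in number 1, at 415, 252 and 272 CPM in number 13 and at 263, 219 and 264 CPM in number 25. Within each group number 1 was highest, and EV numbered 13 came nearest to it. The log2 difference was 1.00 ± 0.15 (adjusted p = 0.00189, edgeR). Of 7 class II genes tested, 5 rose and 0 fell, though the HLA genes among them were at most at 8.10 CPM and CD74 alone passed when both SH3 samples were left out. CIITA, the class II activator, was at 23, 10.6 and 17.3 CPM in number 1 and 5.5 to 17.9 CPM in the others, with overlap (0.82 ± 0.19). Of 11 class I genes 6 rose, B2M by 0.40 and HLA-B by 0.87, and 3 rose without both SH3 samples.

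Monocyte and macrophage genes rose in 13 of 20 tested cases (28 in the files) and fell in 0, with 5 left when both SH3 samples were dropped. CSF1R, the M-CSF receptor, was at 2.14, 2.48 and 3.98 CPM in number 1 and at 1.10 to 1.97 CPM in the others (1.00 ± 0.19, adjusted p = 0.0038, edgeR), without overlap. CD14, CD163, FCN1 and FCGR3A, defining monocyte markers, had at most 3 counts in any sample. The whole list took 0.0828% to 0.0927% of counts in number 1 and 0.0756% to 0.0868% in the others, which overlapped. In bulk samples a change in the share of some cells and a change of RNA per cell cannot be told apart. Of 10 tested mast cell and basophil genes (12 in the files) 4 rose and 0 fell (median 0.56), and 2 rose without both SH3 samples. HPGDS, which makes prostaglandin D2, was at 6.68, 3.38 and 3.71 CPM in number 1 and 0.972 to 2.86 CPM in the others, and IL5RA, the interleukin-5 receptor, at 85.6, 95.8 and 81.9 CPM against 54.0 to 63.4 CPM. The mast cell proteases TPSAB1, TPSB2 and CPA3 did not pass, and CMA1, mast cell chymase, had at most 3 counts in any sample. The list took 0.0163% to 0.0191% of counts in number 1 and 0.0112% to 0.0141% in the others, and the part of such cells in the results was not tested. The other lists of cell types held fewer tested genes: 1 rose and 1 fell of 4 tested B lineage genes (10 in the files), 1 rose of 3 T and NK genes (11), 1 of 4 erythroid genes (20) and 1 of 4 megakaryocyte genes (9), and 0 of 2 stromal genes (10) passed. Over all tested genes 18.5% rose and 16.5% fell, so counts this small are no result about those cell types. Some markers of these lists were near zero, with at most 2 counts for CD3D, CD3E and MS4A1, at most 1 for HBB and HBA1 and at most 5 for COL1A1. Other members were plainly expressed and did not pass. Mean CPM in number 1 and in the others was 57.5 and 54.8 for CD79B, 106.5 and 77.7 for ITGA2B and 1538 and 1593 for TFRC. KIT, the stem cell factor receptor, was at 348 to 418 CPM in number 1 and 237 to 375 CPM in the others (0.34 ± 0.12, adjusted p = 0.0422, edgeR). PTPRC, the pan-leukocyte phosphatase CD45, rose by 0.75 and ANPEP, the myeloid surface protease CD13, fell by 0.32.

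Cytosolic ribosomal protein genes rose together. Of 78 tested, 72 rose and 0 fell, with a median of 0.44, and the list took 9.30%, 10.3% and 12.4% of counts in EV, SH2 and SH3 numbered 1 against 7.29% to 8.57% in the others, without overlap. In the set without both SH3 samples 19 of 78 rose, where 5.42% of all tested genes rose. RPL13A (NM_012423, chromosome 19, 49990767-49996314) was at 2755, 3036 and 3932 CPM in number 1, at 2494, 1995 and 2115 CPM in number 13 and at 1838, 1882 and 1957 CPM in number 25. The smallest gap was within EV, between numbers 1 and 13, and without number 25 RPL13A did not pass. EIF4B, a translation initiation factor, rose by 0.85 and the elongation factor EEF1A1 by 0.54. Ribosomal protein genes have many processed pseudogenes, and how reads shared with them were counted is not given in the sources used here.

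In contrast, most genes of a mixed list, of MYC-related genes and genes that build ribosomes, fell. Of 33 genes of the MYC and ribosome biogenesis list 21 fell and 1 (MXI1, a MYC antagonist) rose, with a median of -0.28, and 8 fell with both SH3 samples left out. ODC1 (NM_002539, chromosome 2, 10580094-10588453), the first enzyme of polyamine synthesis and a MYC target, was at 315, 390 and 209.5 CPM in number 1, at 484, 576 and 589 CPM in number 13 and at 722, 735 and 669 CPM in number 25. The 3 numbers were in the same order in every group. The log2 difference was -1.07 ± 0.17 (adjusted p = 0.00215, edgeR). SRM, spermidine synthase, fell by 0.69 and RRP12, a pre-ribosome export factor, by 0.78. MYC itself was at 719 to 842 CPM in number 1, 528 to 558 CPM in number 13 and 772 to 794 CPM in number 25 and did not pass (0.21 ± 0.15, adjusted p = 0.296, edgeR).

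**Figure D3:**
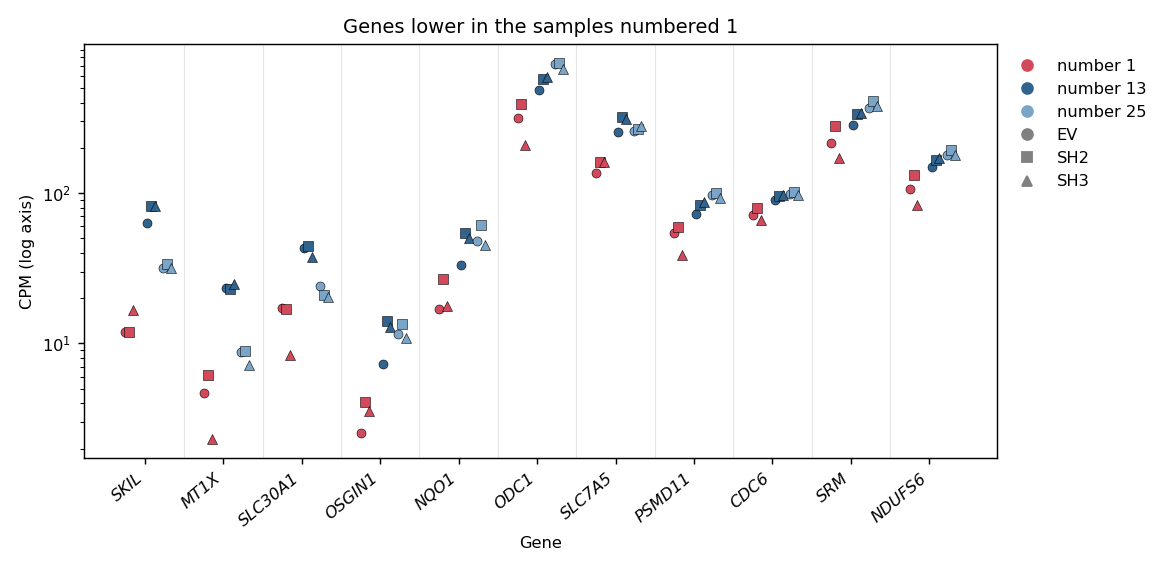
CPM of 11 genes on a log axis, 1 point per sample, coloured by label number and shaped by group (EV, SH2, SH3). All 3 number 1 samples lie under the other 6 for each gene, and SKIL, MT1X and SLC30A1 are higher in number 13 than in number 25.

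Proteasome subunits fell in 28 of 32 cases and rose in 0, with a median of -0.48. With both SH3 samples left out 14 of 32 fell, where 4.13% of all tested genes fell. PSMD1 (NM_002807, chromosome 2, 231921559-232037830), a scaffold of the regulatory particle, was at 65.2, 69.7 and 40.9 CPM in number 1, at 92.8, 100 and 101 CPM in number 13 and at 130, 125 and 120 CPM in number 25. PSMD11 was at 53.9, 59.7 and 38.5 CPM in number 1 and at 72.4 to 99.7 CPM in the others. For both, every number 1 sample was below every other sample, lowest in SH3. The log2 difference was -0.95 ± 0.16 for PSMD1 (adjusted p = 0.00243) and -0.82 ± 0.13 for PSMD11 (adjusted p = 0.00215) in edgeR. PSMB4, PSMD4, PSMA2 and PSMD5 did not pass. The list took 0.373% to 0.473% of counts in number 1 and 0.494% to 0.664% in the others.

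DNA replication genes fell in 31 of 47 cases (median -0.28). With both SH3 samples left out 8 of 47 fell, where 4.13% of all tested genes fell. CDC6, which loads the MCM helicase at origins, was at 71.9, 79.0 and 66.1 CPM in number 1 and 89.8 to 101 CPM in the others (-0.42 ± 0.07, adjusted p = 0.00263, edgeR). MCM5, a helicase subunit, fell by 0.43, and RFC2 and RFC3, subunits of the clamp loader, by 0.51 and 0.45. CDT1, the partner of CDC6 in loading, was the 1 member that rose, at 213, 215 and 302 CPM in number 1 and 140 to 167 CPM in the others (0.68 ± 0.10, adjusted p = 0.00158, edgeR). Fewer mitosis genes passed, with 10 of 39 lower (4 without both SH3 samples) and 0 higher, FOXM1, a factor of late cell cycle genes, falling by 0.48 and CDC20, the activator of the anaphase-promoting complex, by 0.42.

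Mitochondrial lists fell in part. Of 73 mitochondrial ribosomal protein genes 35 fell and 2 rose (median -0.21), and of 77 oxidative phosphorylation genes 29 fell and 1 rose (median -0.13). Without both SH3 samples 7 and 5 fell. NDUFS6, a subunit of complex I, was at 107, 132 and 83.3 CPM in number 1 and 150 to 194 CPM in the others (-0.70 ± 0.11, adjusted p = 0.00242, edgeR). CYCS, cytochrome c, fell by 0.54, MRPS10 by 0.53 and GFM1, the mitochondrial elongation factor, by 0.91. The median of the oxidative phosphorylation list was 0.01 within SH2, -0.21 within EV and -0.23 within SH3. Only 9 of 73 mitochondrial ribosomal protein genes and 4 of 77 oxidative phosphorylation genes lay wholly below the others, against 12% of all genes.

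**Figure D4:**
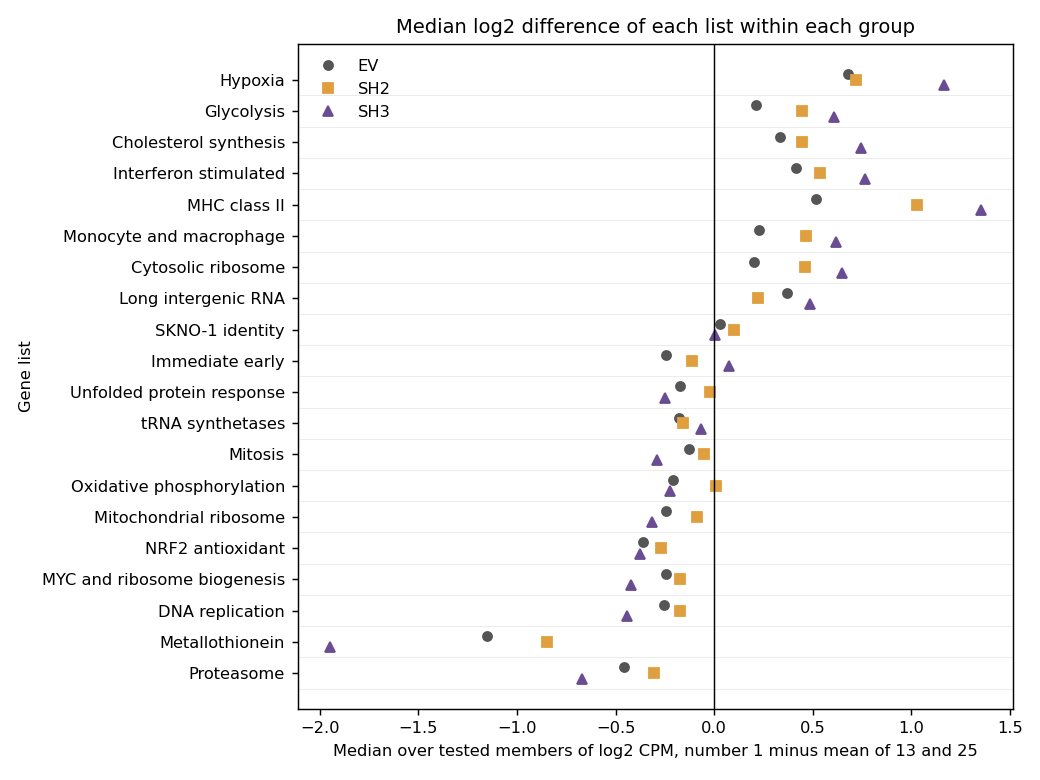
Median over tested members of the difference in log2 CPM between the number 1 sample and the mean of numbers 13 and 25, for 20 gene lists, shown within EV (circles), SH2 (squares) and SH3 (triangles). For hypoxia the medians are 0.68, 0.72 and 1.17, and for the proteasome -0.46, -0.30 and -0.67, while immediate early genes, oxidative phosphorylation and SKNO-1 identity lie near 0 in at least 1 group.

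Antioxidant genes of the NRF2 programme fell in 9 of 16 cases and rose in 1 (TKT, transketolase), with a median of -0.38. When both SH3 samples were dropped 6 fell. NQO1 (NM_000903, chromosome 16, 69740899-69760571), a quinone reductase, was at 16.9, 26.9 and 17.7 CPM in number 1, at 33.0, 53.8 and 50.1 CPM in number 13 and at 47.8, 61.1 and 45.0 CPM in number 25. OSGIN1, a growth inhibitor induced by oxidative stress, was at 2.53, 4.08 and 3.57 CPM in number 1 and at 7.32 to 14.1 CPM in the others. For both genes the highest sample numbered 1 was below the lowest of the others. Log2 differences were -1.26 ± 0.12 for NQO1 (adjusted p = 0.000334) and -1.79 ± 0.16 for OSGIN1 (adjusted p = 0.000286) in edgeR. GCLM, a subunit of the enzyme that starts glutathione synthesis, fell by 0.81 and TXNRD1, thioredoxin reductase, by 0.44. HMOX1, haem oxygenase, was at 1.40 to 1.91 CPM in number 1 and 1.57 to 3.40 CPM in the others and did not pass.

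Of 28 tested genes of the ATF4 amino acid response 5 fell (17.9%, against 16.5% of all genes) and 3 rose, with a median of -0.09. Some transporters were lower. SLC7A5, the large neutral amino acid transporter, was at 136, 162 and 162 CPM in number 1 and at 253 to 319 CPM in the others, and its partner chain SLC3A2 at 83.9, 107 and 116 CPM against 141 to 184 CPM. Both were lower in number 1 in every group, by 0.88 ± 0.08 (adjusted p = 0.000286) and 0.71 ± 0.08 (adjusted p = 0.000529) on the log2 scale in edgeR. The glutamine transporter SLC1A5 fell by 0.43. Of 19 tRNA synthetases 8 fell and 2 rose (5 fell without both SH3 samples), led by MARS, the methionyl synthetase, at 176 to 181 CPM in number 1 and 249 to 286 CPM in the others.

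Metal-response genes differed between all 3 numbers. MT1X (NM_005952, chromosome 16, 56716382-56718108), a metallothionein that binds zinc, was at 4.67, 6.13 and 2.31 CPM in number 1, at 23.2, 22.9 and 24.8 CPM in number 13 and at 8.77, 8.91 and 7.17 CPM in number 25. MT2A was at 34.3, 51.2 and 18.8 CPM, at 79.3, 87.9 and 87.9 CPM and at 50.5, 61.9 and 53.4 CPM in the same order. SLC30A1, the zinc exporter, was at 17.2, 17.0 and 8.44 CPM, at 43.3, 44.4 and 37.3 CPM and at 24.0, 21.1 and 20.3 CPM. MTF1 itself fell by 0.28 on the log2 scale. All 3 genes were highest in number 13 and lowest in number 1 in every group. Against 13 and 25 together they fell by 1.91 ± 0.49, 1.08 ± 0.26 and 1.20 ± 0.30 on the log2 scale, with adjusted p of 0.013, 0.00985 and 0.0112 in edgeR. Number 25 was also below number 13, by -1.53 for MT1X (adjusted p = 0.00359) and -0.94 for SLC30A1 (adjusted p = 0.00784) in edgeR. Of 7 metallothionein-list genes tested 5 fell, and with both SH3 samples left out 0 passed.

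Their promoters are shown for the metal response core TGCACNC or TGCGCNC, which MTF1 reads, in capitals on either strand. The windows are RefSeq sequences of GRCh38.p14 from -250 to -1, MT2A (plus strand, chr16:56608334-56608583) with 7 matches, MT1X (plus strand, chr16:56682220-56682469) with 4 and SLC30A1 (minus strand, chr1:211579162-211579411) with 1:
MT2A: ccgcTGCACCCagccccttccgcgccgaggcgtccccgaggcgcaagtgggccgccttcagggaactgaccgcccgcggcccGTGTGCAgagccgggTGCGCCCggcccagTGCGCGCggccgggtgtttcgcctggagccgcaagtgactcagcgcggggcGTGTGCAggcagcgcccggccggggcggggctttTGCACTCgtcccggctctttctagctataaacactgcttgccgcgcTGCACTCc
MT1X: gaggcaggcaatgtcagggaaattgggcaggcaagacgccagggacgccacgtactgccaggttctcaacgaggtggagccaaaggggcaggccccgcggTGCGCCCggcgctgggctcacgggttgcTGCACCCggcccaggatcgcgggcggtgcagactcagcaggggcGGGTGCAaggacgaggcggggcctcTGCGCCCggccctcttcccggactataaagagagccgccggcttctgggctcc
SLC30A1: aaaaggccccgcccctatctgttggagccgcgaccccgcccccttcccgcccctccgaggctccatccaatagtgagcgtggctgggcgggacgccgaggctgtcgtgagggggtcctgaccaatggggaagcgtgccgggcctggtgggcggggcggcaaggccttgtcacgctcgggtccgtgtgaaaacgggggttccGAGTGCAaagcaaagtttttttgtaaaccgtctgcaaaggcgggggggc
Of 10115 promoters of tested genes 32.9% held such a core, and of all 27305 promoters 24.7%. The core can share letters with GCGTG of the hypoxia search.

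**Figure D5:**
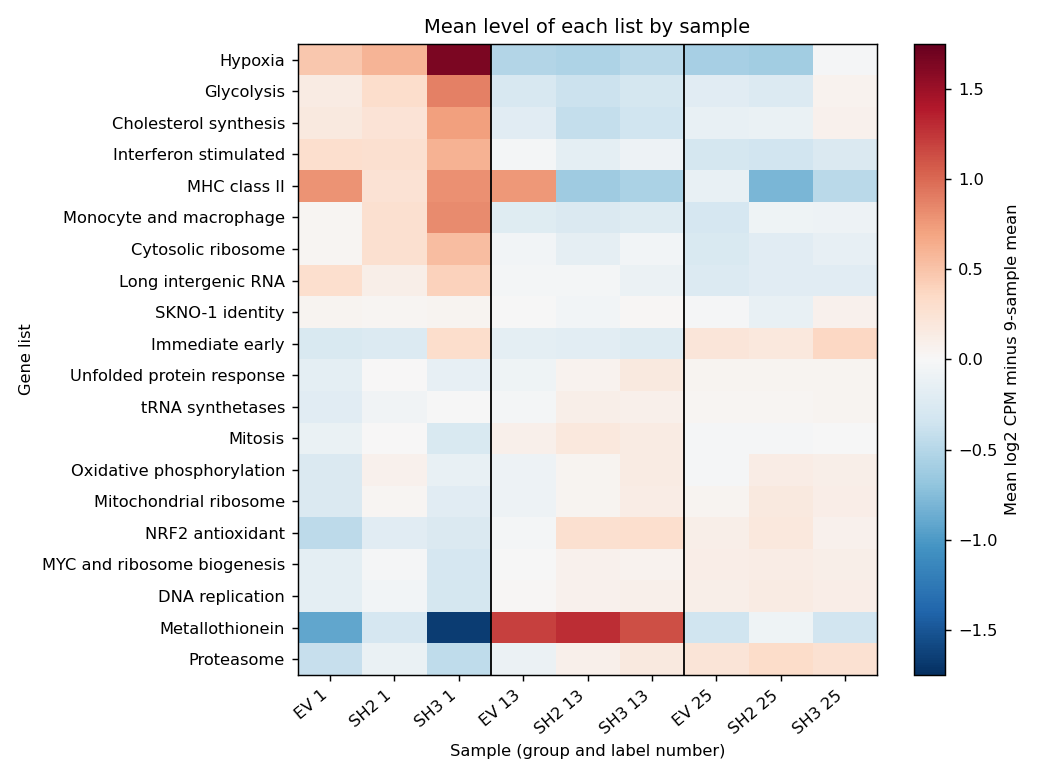
Mean over tested members of log2 CPM minus the mean over all 9 samples, for 20 gene lists (rows) in each sample (columns, ordered by label number). The hypoxia list is at 0.47, 0.60 and 1.65 in number 1, and SH3 numbered 25 (-0.02) is the highest of the other 6, while the metallothionein list is high in number 13 only, at 1.13 to 1.29.

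SKIL and SMAD7, inhibitors of TGF-beta signalling that were among the largest falls, had the same order of numbers as the metal genes. SKIL (NM_005414, chromosome 3, 170075130-170114623), a SMAD corepressor, was at 11.9, 11.9 and 16.8 CPM in number 1, at 63.1, 82.2 and 82.2 CPM in number 13 and at 31.8, 33.9 and 31.5 CPM in number 25. SMAD7, an inhibitory SMAD, was at 3.71, 4.86 and 5.85 CPM, at 13.2, 19.3 and 18.6 CPM and at 7.80, 7.73 and 6.15 CPM in the same order. Number 13 was highest and number 1 lowest in every group for both, though SMAD7 in SH3 numbered 1 (5.85 CPM) was close to SH3 numbered 25 (6.15 CPM). The log2 difference from 13 and 25 together was -2.01 ± 0.37 for SKIL (adjusted p = 0.00372) and -1.35 ± 0.37 for SMAD7 (adjusted p = 0.018) in edgeR. FST, the activin antagonist follistatin, fell by 1.40 and did not share that order, at 6.04 to 14.0 CPM in number 1, 14.1 to 25.1 CPM in number 13 and 19.3 to 28.5 CPM in number 25. Of 13 tested genes of a TGF-beta response list, drawn up after the values were seen, 4 fell and 1 rose, with a median of 0.0086. CEACAM6, a granulocyte surface protein, fell by 1.62 and MMP2, a gelatinase, by 0.92.

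Stress lists other than these were mixed. Heat shock genes fell in 4 of 17 cases (23.5%, against 16.5% of all genes), and in 1 without both SH3 samples. HSP90AA1 was at 1442 to 2236 CPM in number 1, 1924 to 2443 CPM in number 13 and 3067 to 3378 CPM in number 25, so that it overlapped number 13 and stood below number 25. Of 19 genes of the unfolded protein response 6 (31.6%) fell (4 without both SH3 samples) and 1 (5.26%) rose, with the chaperone HYOU1 falling by 0.54. Of 27 immediate early genes 3 (11.1%) rose and 2 (7.41%) fell. Over all genes 18.5% rose and 16.5% fell. FOSB was at 0.938 to 2.52 CPM in number 1, 2.82 to 4.70 CPM in number 13 and 6.42 to 12.4 CPM in number 25, while FOS was at 4.62 to 6.53, 1.77 to 2.01 and 24.6 to 55.2 CPM in the same order. FOSB thus fell (-2.0 ± 0.43, adjusted p = 0.00627, edgeR), whereas FOS in number 1 lay above number 13 and below number 25 and did not pass.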

How the data were processed

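The authors deposited raw counts, in whole numbers, for 48104 RefSeq rows per sample, each with a symbol, on hg19. The submitters' processing notes name STAR, featureCounts and DESeq2, with no version or role. From these, each of 25680 symbols was taken as its row with the highest total over the 9 samples (9509 symbols had several rows), so a shift between isoforms could move a value. edgeR 4.0.16 in R 4.3.3 was fitted with TMM factors, a term per group and 1 term for number 1. Genes passed filterByExpr (minimum count 10, total 15), and p values were adjusted by Benjamini-Hochberg over all 14391 genes, with a threshold of 0.05. The SE is the log2 difference over the square root of F. Each contrast with a single number came from a fit with the number in 3 levels. Lists are described by counts and medians, without a set test. The fits were tested on simulated counts. The genes named were ASXL2, the 15 largest rises and falls without overlap at a mean of at least 5 CPM and the 6 largest at 100 CPM, up to 4 members of each list with the smallest adjusted p in each direction or that define it, and the 6 smallest p of the joint test; others were chosen after their values were seen. Members and lists were chosen with earlier results of these data known. DESeq2 1.42.0 and other normalisations, filters and samples were tried as alternatives. Promoters came from a RefSeq table of GRCh38.p14 matched by symbol, and gene coordinates are of GRCh37. Values of some list members are not reported here.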

Additional observations from a re-analysis of the deposited data

Results flagged for a closer look

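Among the 6 samples numbered 13 and 25, 1 sample stood outside the others for 9 of 133 genes by Dixon's criterion (the gap to the nearest sample over the range, on log2 CPM), a criterion that chance alone meets in about 1 in 20 groups. SH3 numbered 25 was the highest for 4 of them, all of the hypoxia programme: BNIP3 at 110 CPM against 31.9 to 36.1 CPM, PFKFB4 at 22.6 CPM against 2.98 to 5.14 CPM, P4HA1 at 105 CPM against 41.7 to 51.5 CPM and MIR210HG at 1.57 CPM against 0.0681 to 0.173 CPM. These 4 stayed under every number 1 sample. EV numbered 13 stood apart for CD74 (415 CPM against 219 to 272 CPM), GFM1 (181 CPM against 208 to 219 CPM), MRPS10 (71.4 CPM against 84.7 to 89.7 CPM) and SLC1A5 (336 CPM against 380 to 398 CPM), each time on the side of the number 1 samples. EV numbered 25 was lowest for MX1, at 0.3 CPM against 0.439 to 0.525 CPM.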

How the results depend on the processing

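The count of genes called, 5049, stayed within a factor of 1.5 under DESeq2 (5173), other normalisations, filters and rows per gene, and all calls tested kept their direction in every alternative run. Those runs reuse most or all of the samples from which the calls were made, so a kept direction is no independent check. Upper-quartile factors moved the share of higher calls from 52.8% to 63.6% and the median of all genes to 0.06. The replicate number is itself what was compared. With it as a block of 3 levels, 6610 genes passed, including all 5049. Leaving out a number or 1 sample gave 1490 (without SH3 numbered 1) to 6041 genes in all, 885 to 2917 higher and 605 to 3124 lower. The lower genes numbered 1501 without EV numbered 1. Without number 25, 2189 passed (1264 higher, 925 lower). Leaving out a whole group gave 1448 lower genes without EV, and 1400 in all (839 higher, 561 lower) without SH3. Dropping the SH3 samples numbered 1 and 25, a choice made after seeing the data, left 1391 (789 higher, 602 lower). Against number 13 alone, 2927, 2484 and 3033 genes passed without EV, SH2 and SH3, against 25 alone 3808 and 4142 without EV and SH2, and between 25 and 13, 44, 10 and 2043 without EV, SH2 and SH3. The ASXL2 difference ranged from -0.125 (without number 25) to -0.342 (without number 13, where it passed, adjusted p = 0.0177, edgeR), and that of VEGFA from -0.105 (without number 13, its direction reversed) to 0.5 (without number 25, where it passed). Of 3450 named differences recomputed, 3299 kept direction and side of the threshold and 148 lost the threshold, the largest number (32 of 133 genes) without SH3 numbered 1, MT1X, MT2A, SLC30A1, CIITA, SMAD7 and KIT among them. The causes were not tested.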

Other observations

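Several further lists were drawn up after the values had been seen, so their counts are descriptions only. The lists above were also chosen with earlier results of these data known, and their counts are descriptions too. Of 20 other transcripts of translation factors and related genes with a terminal oligopyrimidine start, 16 rose and 0 fell (median 0.45), among them EIF3E by 0.64 and VIM by 0.93 on the log2 scale. Of 21 genes of growth arrest and FOXO control 15 rose and 0 fell (median 0.63), including the anti-proliferative BTG1 by 0.77. Nuclear transport genes fell in 10 of 13 cases and rose in 0, with KPNB1, importin beta, falling by 0.38, and nucleotide synthesis genes fell in 9 of 15 and rose in 1 (IMPDH2), with CAD, which starts pyrimidine synthesis, falling by 0.55. Core spliceosome genes fell in 10 of 17 and rose in 1 (SRSF5), enzymes of the tricarboxylic acid cycle fell in 6 of 13, and subunits of the CCT chaperonin in 4 of 8. Of 15 JmjC demethylases, enzymes that need oxygen, 6 rose and 1 (KDM2B) fell. The remaining lists went both ways, against 18.5% higher and 16.5% lower over all genes. Of 13 autophagy genes 3 (23.1%) rose, among them BNIP3 and BNIP3L of the hypoxia list, and 1 fell. Of 12 clock genes 4 (33.3%) rose and 3 (25%) fell. Of 13 TGF-beta response genes 1 rose and 4 (30.8%) fell. Their medians were 0.06, 0.03 and 0.0086. Lists share members: KDM3A, DDIT4 and MXI1 of the hypoxia list also count among the demethylase, ATF4 and MYC genes. With both SH3 samples numbered 1 and 25 left out, the counts were 4 of the oligopyrimidine genes, 7 of growth arrest, 6 of nuclear transport, 1 of nucleotide synthesis, 0 of the spliceosome, 0 of the tricarboxylic acid cycle, 0 of CCT and 3 demethylases higher.

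Long intergenic RNAs rose in 48 of 126 tested cases and fell in 1, with a median log2 difference of 0.34, and in 19 of 132 without the SH3 samples numbered 1 and 25. LINC00263 was at 26.6 to 65.8 CPM in number 1 and 6.27 to 13.8 CPM in the others. Of 182 small nucleolar RNA rows 27 fell (14.8%, against 16.5% of all genes) and 2 rose, and 1 fell without those SH3 samples, although such short RNAs are poorly held by poly(A) libraries and their rows often lie inside host genes, so that reads of the host cannot be told apart.

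The 6 genes with the smallest p in the joint test of the groups were LMNA, PIK3R3, FCGR2B, STEAP3, TRAF1 and SCART1, none past the threshold (adjusted p = 0.848 for each, edgeR). In each of them SH3 numbered 1 was the outlying sample, as for LMNA, a nuclear lamina protein, at 37.7 CPM there and 16.6 to 27.8 CPM in the other 8 samples.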
